A study of Mus musculus with 6 samples.

Results

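The 10 genes described here encode the machinery that brings an autophagosome into contact with a lysosome and fuses them. They were chosen by symbol, and each had exactly 1 row among the 22298 entries of the expression table. The set holds the 6 subunits of the HOPS tethering complex (Vps11, Vps16, Vps18, Vps33a, Vps39 and Vps41) and 4 SNARE genes (Stx17, Snap29, Vamp8 and Ykt6). RNA came from whole ocular lenses of C57BL/6 mice at postnatal day 0, with 3 libraries labelled Fyco1-/- and 3 labelled WT. Every library was a biological replicate made from a pool of 10 lenses. The source labels name no allele design, no Cre and no treatment, and both genotypes carry the same strain label.

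A finished autophagosome is moved along microtubules, tethered to a late endosome or lysosome and then fused with it. Fyco1, the disrupted gene, encodes an adaptor that binds Rab7 and LC3 on the vesicle and links it to kinesin. HOPS holds the membranes together, and a bundle of SNARE helices, contributed by a Qa, a Qb, a Qc and an R type, drives the fusion. In the lens, fibre cells clear their organelles as they mature, and autophagy is active in both epithelium and fibres.

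Values are FPKM (fragments per kilobase of gene, scaled to library size), so levels of different genes can be set side by side. The libraries hold an estimated 17.01 to 20.02 M (mega) reads, from the steps between small FPKM values. At that depth the members rest on an estimated 60 to 91 reads per library for Vamp8, the lowest, and 1824 to 2290 for Ykt6, the highest. Fyco1 had 4.61, 4.59 and 4.87 FPKM in the Fyco1-/- libraries A, B and C, against 5.40, 5.21 and 5.11 FPKM in the WT libraries A, B and C, and values of single libraries are given in that order throughout. The values did not overlap, but the gene was not called (log2 fold change -0.15, limma adjusted p = 0.273), so this level does not check the genotype labels. The 9 markers of lens fibres summed to between 59903 and 61635 FPKM in Fyco1-/- and between 60711 and 62608 FPKM in WT. The 6 lens epithelium markers summed to between 404 and 432 FPKM in Fyco1-/- and between 477 and 525 FPKM in WT, and Pax6, Sfrp1 and Ccnd2 among them were called lower. Summed markers of retina (5 genes) and of pigment epithelium (4 genes) stayed under 1 FPKM in every library. Vessel markers summed to between 13.6 and 15.7 FPKM in Fyco1-/- and between 14.6 and 20.4 FPKM in WT, and pericyte and mesenchyme markers to between 22.5 and 23.0 FPKM in Fyco1-/- and between 21.1 and 29.9 FPKM in WT, with no gene called. Markers of cornea and of macrophages summed to at most 1.39 FPKM in Fyco1-/- and 2.10 FPKM in WT, and red cell markers ranged from 56.7 to 172 FPKM in Fyco1-/- and from 44.3 to 102 FPKM in WT with no call. The 3 muscle markers summed to between 39.1 and 48.0 FPKM in Fyco1-/- and between 24.7 and 25.7 FPKM in WT, and Actn2, the 1 of them that passed the filter on low values, was called higher. In these bulk samples fewer cells of a type and less RNA per cell cannot be told apart, and the part of the epithelial and muscle marker differences in the values below was not tested.

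In Fyco1-/- lenses Vps11 rose 1.503-fold, and none of the other 9 members passed the test. Genes were tested with limma on log2(FPKM + 0.5) over all 12001 genes with a mean of at least 0.5 FPKM, and a gene is called where its p, adjusted by Benjamini and Hochberg's method, is under 0.05. All 10 members passed that filter. Of them 1 was called higher and none lower, where 3.42% of all genes tested were called higher, 5.02% lower and 8.43% in either direction. The balance of directions among all calls depended on scaling, with 40.5% of calls higher as deposited and 56.5% after median-of-ratios scaling. In 6 of the 10 members the 3 values of one genotype lay apart from the 3 of the other, as in 29.7% of all genes tested. In 5 of these (Vps11, Vps16, Vps33a, Vps41 and Ykt6) the Fyco1-/- values were the higher ones, as in 11.1% of all genes, and in Vps39 they were the lower ones, as in 18.6%. The median log2 fold change was 0.10 over the members and -0.04 over all genes tested.

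**Figure D1:**
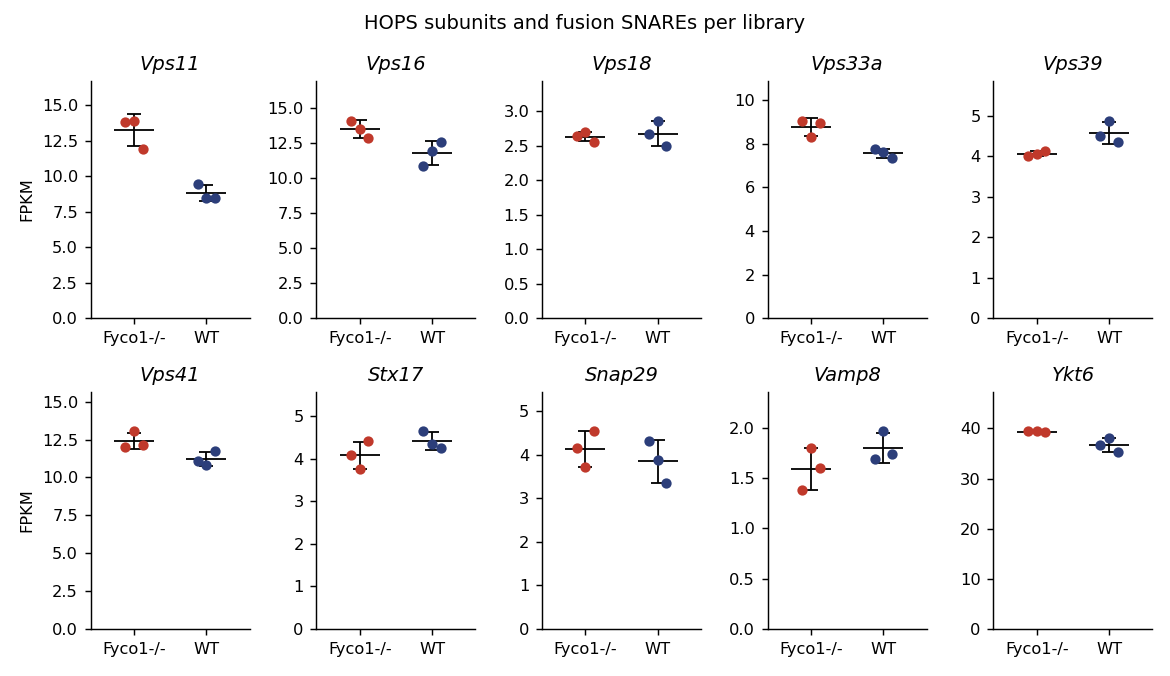
FPKM of each member in the 3 Fyco1-/- libraries (red, left) and the 3 WT libraries (blue, right). Points are libraries in the order A, B and C, and bars give the mean and SD. The Vps11 values of Fyco1-/- sit between 11.9 and 13.9 FPKM, above all 3 WT values, while Vps18, Stx17, Snap29 and Vamp8 overlap.

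The core of HOPS, made of Vps11, Vps16, Vps18 and Vps33a, is shared with the early endosomal tether CORVET. Vps11 (ENSMUSG00000032127, GRCm38 chr9:44347749-44361670, minus strand) encodes a RING-domain subunit that scaffolds the complex. It had 13.9, 13.9 and 11.9 FPKM in the Fyco1-/- libraries, against 9.46, 8.49 and 8.47 FPKM in the WT libraries. The lowest Fyco1-/- library, C, still lay above the highest WT library, A. The means were 13.2 ± 1.13 FPKM in Fyco1-/- and 8.81 ± 0.564 FPKM in WT (SD, n = 3 each). The log2 fold change was 0.56 (SE 0.08, 95% interval 0.38 to 0.74, limma adjusted p = 0.00205), larger in size than that of 96.0% of the genes tested. In the authors' deposited table the log2 fold change of Vps11 was 0.59 with an adjusted p of 5.38e-10.

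Vps18 (chr2:119288740-119298453, plus strand) encodes the other RING-domain subunit of the core and was the lowest of the HOPS genes. It had 2.64, 2.69 and 2.56 FPKM in the Fyco1-/- libraries, against 2.67, 2.86 and 2.49 FPKM in the WT libraries. The genotypes overlapped fully, with a log2 fold change of -0.02 (95% interval -0.23 to 0.19, limma adjusted p = 0.928). The sign of the Vps18 difference turned under 3 of 15 other settings, none of which called it.

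Vps33a (chr5:123528659-123573038, minus strand) encodes the Sec1/Munc18 protein of the complex, the subunit that grips SNARE helices. It had 9.06, 8.29 and 8.94 FPKM in the Fyco1-/- libraries, against 7.73, 7.63 and 7.33 FPKM in the WT libraries. All 3 Fyco1-/- values were above all 3 WT values. The log2 fold change of 0.20 (SE 0.07, 95% interval 0.05 to 0.35) did not pass (limma adjusted p = 0.107). It did pass after quantile normalization (log2 0.24, adjusted p = 0.0464) and after median-of-ratios scaling (log2 0.24, adjusted p = 0.0453). In the authors' deposited table Vps33a had a log2 fold change of 0.24 and an adjusted p of 0.0436. By that table's adjusted p under 0.05, Vps11 and Vps33a were called among the members, where 9.37% of its 13066 genes with an adjusted p were called in either direction and 5.22% higher.

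Vps16 (chr2:130424339-130444269, plus strand) encodes the subunit that carries Vps33a. It had 14.1, 13.5 and 12.8 FPKM in the Fyco1-/- libraries, against 10.8, 11.9 and 12.6 FPKM in the WT libraries. The groups lay apart only narrowly, at 12.8 FPKM in Fyco1-/- C and 12.6 FPKM in WT C. The log2 fold change was 0.19 (SE 0.07, 95% interval 0.03 to 0.35, limma adjusted p = 0.137). Of the 3727 exon bases of Vps16, 109 overlap Pced1a on the opposite strand, which averaged 4.79 ± 0.196 FPKM in Fyco1-/- and 3.64 ± 0.528 FPKM in WT, and the handling of strand in counting is not given in the sources used here.

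The promoter windows of Vps16 and Vps33a are shown because they alone, of those searched, held the core of the CLEAR element. Searched were the 8 members with an entry in the RefSeq promoter table (GRCm38.p6). Vps11 and Vps39 had no entry, so their promoters were not searched. CLEAR elements are E-box sequences bound by TFEB and related factors in lysosomal and autophagy genes. The 250 bases before each RefSeq start are printed 5′ to 3′ on the gene's own strand, with the element in capitals. These starts differ from the gene coordinates given above, and part of the Vps33a window lies inside those coordinates. Positions of elements are counted from the RefSeq starts.
Vps16, chr2:130424070-130424319, plus strand: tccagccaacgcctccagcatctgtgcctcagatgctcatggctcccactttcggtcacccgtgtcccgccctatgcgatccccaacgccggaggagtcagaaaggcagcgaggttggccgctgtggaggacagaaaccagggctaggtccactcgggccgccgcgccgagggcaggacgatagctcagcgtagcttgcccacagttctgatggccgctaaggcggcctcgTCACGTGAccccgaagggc
Vps33a, chr5:123573016-123573265, minus strand: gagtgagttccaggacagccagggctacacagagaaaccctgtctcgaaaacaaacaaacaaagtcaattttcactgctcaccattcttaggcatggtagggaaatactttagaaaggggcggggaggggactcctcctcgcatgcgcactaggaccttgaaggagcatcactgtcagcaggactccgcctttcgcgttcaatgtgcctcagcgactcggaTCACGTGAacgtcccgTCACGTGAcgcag

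The search covered both strands from 250 bases before to 50 bases after the start. The CLEAR core TCACGTG was found in 2 of the 8 members and in 3.77% of the 32851 promoters of the table. The plain E-box CACGTG, which every CLEAR core contains, was found in the same 2 members and in 7.15% of all promoters. In Vps16 the element stood once, as the palindrome TCACGTGA, with its E-box beginning 18 bases before the start. In Vps33a the palindrome stood 2 times, with E-boxes beginning 28 and 12 bases before the start. The core of the antioxidant response element, TGACNNNGC, was found in Vps16 alone of the 8 and in 12.4% of all promoters. It overlaps the CLEAR element there. Both genes had log2 fold changes near 0.2 that did not pass the test, and a match of letters is a description of the window, not a bound site.

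Vps39 and Vps41 are the subunits that HOPS has and CORVET lacks, and they sit at the ends of the complex, where small GTPases are bound. Vps41 (chr13:18717286-18866811, plus strand), which binds Arl8b on lysosomes, had 12.04, 13.0 and 12.2 FPKM in the Fyco1-/- libraries, against 11.1, 10.8 and 11.7 FPKM in the WT libraries. The groups lay apart, by a smaller gap than their own spread, and the log2 fold change of 0.14 (SE 0.06, 95% interval -0.0023 to 0.28) did not pass (limma adjusted p = 0.212). Vps39 (chr2:120316461-120353137, minus strand), whose yeast counterpart binds the Rab7 homologue, had 4.01, 4.05 and 4.13 FPKM in the Fyco1-/- libraries, against 4.51, 4.88 and 4.35 FPKM in the WT libraries. All 3 Fyco1-/- values were below all 3 WT values, with a log2 fold change of -0.15 (SE 0.08, 95% interval -0.34 to 0.03, limma adjusted p = 0.283). Within a library, the ratio of Vps41 to Vps39 does not depend on scaling. It was 3.01, 3.22 and 2.94 in the Fyco1-/- libraries and 2.46, 2.22 and 2.69 in the WT libraries. With Vps41 higher and Vps39 lower in all 3 Fyco1-/- libraries, this ratio could not overlap between the genotypes. Its separation is therefore not a further result.

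**Figure D2:**
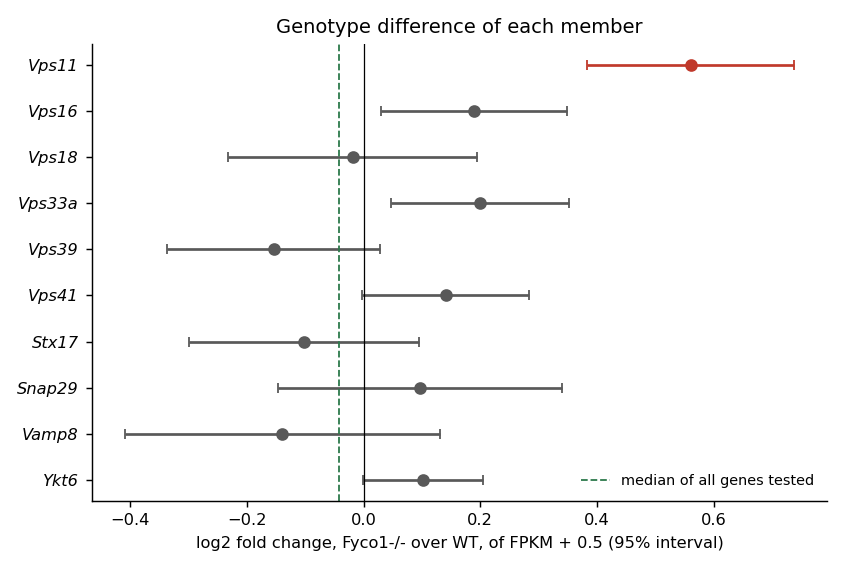
Log2 fold change of each member, Fyco1-/- over WT, with its 95% interval from limma. The dashed line marks the median of all genes tested, -0.04. Vps11 (red) is the one member called, and the intervals of Vps16 and Vps33a also lie above 0 before adjustment.

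The make-up of the HOPS transcripts differed between the genotypes mainly through Vps11. The 6 subunits summed to 55.7, 55.5 and 52.5 FPKM in the Fyco1-/- libraries, against 46.3, 46.6 and 46.9 FPKM in the WT libraries, a ratio of mean sums of 1.17. Without Vps11 the other 5 summed to 41.8, 41.6 and 40.6 FPKM in the Fyco1-/- libraries, against 36.8, 38.1 and 38.5 FPKM in the WT libraries, a ratio of 1.09. Vps11 made up 24.9%, 25.1% and 22.7% of the sum in the Fyco1-/- libraries, against 20.4%, 18.2% and 18.0% in the WT libraries. This within-library share was higher in all 3 Fyco1-/- libraries than in any WT library, by 5.33 percentage points between the means. The share of Vps39 averaged 7.45% ± 0.357 in Fyco1-/- and 9.83% ± 0.611 in WT, and that of Vps18 averaged 4.82% ± 0.0637 in Fyco1-/- and 5.74% ± 0.415 in WT (SD, n = 3 each). Neither overlapped between the genotypes. Since shares add up to the whole, a larger share of Vps11 goes with a smaller summed share of the other 5, not of each. The FPKM of Vps39 itself was also lower in all 3 Fyco1-/- libraries, though not called, while that of Vps18 overlapped. The shares of Vps16, Vps33a and Vps41 overlapped. The ratio of Vps11 to Vps18, the 2 RING-domain subunits, averaged 5.03 ± 0.314 in Fyco1-/- and 3.30 ± 0.300 in WT. These shares are descriptions and carry no test.

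**Figure D3:**
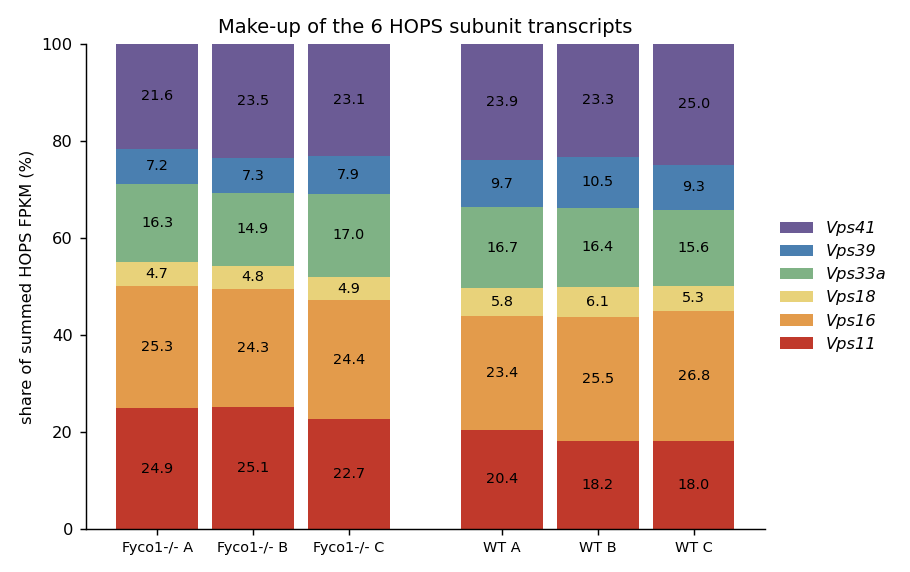
Share of each HOPS subunit in the summed FPKM of the 6 subunits, per library, with Fyco1-/- on the left and WT on the right. The Vps11 segment at the bottom spans 22.7% to 25.1% in Fyco1-/- and 18.0% to 20.4% in WT, while Vps39 and Vps18 take smaller shares in Fyco1-/-.

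Among the SNAREs, Stx17 is the Qa-SNARE that moves onto completed autophagosomes. Stx17 (chr4:48124915-48186507, plus strand) had 4.07, 3.76 and 4.404 FPKM in the Fyco1-/- libraries, against 4.64, 4.34 and 4.25 FPKM in the WT libraries. The groups overlapped, with a log2 fold change of -0.10 (95% interval -0.30 to 0.09, limma adjusted p = 0.525). Snap29 (chr16:17405986-17430827, plus strand) supplies the Qb and Qc helices to both autophagosomal SNARE bundles. It had 4.16, 3.72 and 4.54 FPKM in the Fyco1-/- libraries, against 4.32, 3.88 and 3.35 FPKM in the WT libraries. The genotypes overlapped widely (log2 0.10, 95% interval -0.15 to 0.34, limma adjusted p = 0.640), and the WT values alone had a coefficient of variation of 12.6%. Of the 3447 exon bases of Snap29, 60 overlap Pi4ka on the opposite strand.

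Vamp8 and Ykt6 are R-SNAREs that complete different bundles: Vamp8, on the lysosome side, pairs with Stx17, and Ykt6, a lipid-anchored SNARE on the autophagosome that also works between endoplasmic reticulum and Golgi, pairs with Stx7. Vamp8 (chr6:72385223-72390703, minus strand) had 1.38, 1.80 and 1.597 FPKM in the Fyco1-/- libraries, against 1.69, 1.97 and 1.74 FPKM in the WT libraries. The groups overlapped (log2 -0.14, 95% interval -0.41 to 0.13, limma adjusted p = 0.528), and this interval was the widest of the 10 members. Ykt6 (chr11:5955693-5967780, plus strand) had 39.4, 39.4 and 39.3 FPKM in the Fyco1-/- libraries, against 36.6, 38.1 and 35.3 FPKM in the WT libraries. The 3 Fyco1-/- values had a coefficient of variation of 0.224% and lay above all WT values, but the log2 fold change of 0.10 (SE 0.05, 95% interval -0.0014 to 0.21) did not pass (limma adjusted p = 0.211). In the authors' deposited table Ykt6 had an adjusted p of 0.0873. The summed SNARE transcripts came to 49.2 ± 0.573 FPKM in Fyco1-/- and 46.7 ± 1.91 FPKM in WT (SD, n = 3 each). The sums lay apart only narrowly, at 48.7 FPKM in Fyco1-/- B and 48.3 FPKM in WT B. Ykt6 made up most of them, on average 80.1% in Fyco1-/- and 78.5% in WT. The share of Stx17 averaged 8.29% ± 0.557 in Fyco1-/- and 9.44% ± 0.425 in WT, without overlap. The shares of Snap29, Vamp8 and Ykt6 overlapped between the genotypes. These sums and shares carry no test.

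The levels of the members spanned a wide range in both genotypes. Ykt6 was highest, at 39.4 FPKM in Fyco1-/- and 36.7 FPKM in WT, above 92.3% of the genes tested in WT. Vamp8 was lowest, at 1.59 FPKM in Fyco1-/- and 1.80 FPKM in WT, above 25.5% of the genes tested in WT. Ykt6 thus exceeded Vamp8 by 25.0 ± 3.36 times in Fyco1-/- and by 20.4 ± 1.15 times in WT (mean ± SD of the within-library ratios, n = 3 each). In WT the order after Ykt6 was Vps16, Vps41, Vps11, Vps33a, Vps39, Stx17, Snap29, Vps18 and Vamp8. Neighbours whose WT values overlapped were Vps16 with Vps41, Vps39 with Stx17, and Stx17 with Snap29. In Fyco1-/- the order after Ykt6 was Vps16, Vps11, Vps41, Vps33a, Snap29, Stx17, Vps39, Vps18 and Vamp8. Snap29, Stx17 and Vps39 overlapped one another in Fyco1-/-. There Vps11 overlapped both Vps16 and Vps41, while in WT it lay below both, and its ratio to Vps16 averaged 0.981 ± 0.0507 in Fyco1-/- and 0.753 ± 0.105 in WT.

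Vps11 lies on chromosome 9 at 44347749-44361670. Fyco1 lies on the same chromosome but far from it, at 123789500-123851899, and the other 9 members lie on 7 other chromosomes. Of the 634 tested genes matched to chromosome 9, 13.1% were called, against 8.21% of the tested genes matched to other chromosomes, and the part of the chromosome in the Vps11 difference was not tested. Not every tested neighbour of Vps11 is reported here, so the directions below do not describe all of them. Hyou1, a chaperone of the endoplasmic reticulum, has its start 31.7 kb away. It fell to 7.60 ± 0.967 FPKM in Fyco1-/-, against 10.4 ± 0.985 FPKM in WT (limma adjusted p = 0.0286). The histone variant gene H2afx (log2 0.52, limma adjusted p = 0.0998) and the glucose-6-phosphate transporter gene Slc37a4 (log2 0.23, limma adjusted p = 0.239) were not called. The tested genes whose log2 values over the 6 libraries correlated most with Vps11 were A430105I19Rik (Pearson r = 0.998), Trappc3 (r = 0.997) and Pcbd2 (r = 0.994). Those coefficients describe 6 libraries in 2 genotypes, and a difference between the genotypes alone raises them.

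Around the members, the wider tethering and SNARE machinery showed 6 calls. Of 104 companion genes in 8 lists, 103 had a row and 96 were tested, of which 4 rose and 2 fell, or 6.25%, where 8.43% of all genes tested were called. Their median log2 fold change was -0.01, against -0.04 over all genes. Of the 6 tested genes listed as relatives of HOPS none was called (median log2 0.01). They include Vps8 and Tgfbrap1, the subunits that CORVET has in place of Vps41 and Vps39. The list also holds Vps45, a Sec1/Munc18 gene (limma adjusted p = 0.600). Vps8 averaged 9.25 FPKM in Fyco1-/- and 9.91 FPKM in WT (limma adjusted p = 0.457), and Tgfbrap1 averaged 2.98 FPKM in Fyco1-/- and 2.74 FPKM in WT (limma adjusted p = 0.648).

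The 22 tested regulators around Rab7, Arl8 and Rab2 had a median log2 fold change of -0.03, with 1 called higher and 1 lower, and both calls were subunits of the Mon1-Ccz1 complex, which activates Rab7. Rmc1, its accessory subunit, listed as 3110002H16Rik, had 6.70, 5.26 and 5.68 FPKM in the Fyco1-/- libraries, against 2.88, 2.93 and 2.87 FPKM in the WT libraries. It rose 2.03-fold (log2 0.90, SE 0.10, limma adjusted p = 0.000421). Of the 6182 exon bases of Rmc1, 511 overlap Npc1 on the opposite strand, which averaged 3.52 ± 0.454 FPKM in Fyco1-/- and 2.76 ± 0.231 FPKM in WT. Mon1a, a catalytic subunit, had 2.07, 1.65 and 1.77 FPKM in the Fyco1-/- libraries, against 3.20, 3.71 and 2.62 FPKM in the WT libraries. It fell by 0.65 on the log2 scale (SE 0.13, limma adjusted p = 0.0133). That call was lost when WT A was left out (adjusted p = 0.0504) and when WT B was (adjusted p = 0.0552). In the authors' deposited table Mon1a had an adjusted p of 0.0138. The other subunits were not called: Mon1b averaged 4.04 FPKM in Fyco1-/- and 4.43 FPKM in WT (limma adjusted p = 0.424), and Ccz1 averaged 19.7 FPKM in Fyco1-/- and 18.3 FPKM in WT (limma adjusted p = 0.334). Mon1a also lies on chromosome 9, at 107888151-107903139. Rab7 itself, to which Fyco1 binds, averaged 36.1 FPKM in Fyco1-/- and 34.7 FPKM in WT (limma adjusted p = 0.574). The authors' deposited table also called Plekhm1 (log2 0.31, adjusted p = 0.0466) and Irgm1 (log2 -0.51, adjusted p = 0.00678) of this list. Here Plekhm1 was not called (limma adjusted p = 0.211), and Irgm1 did not pass the filter on low values.

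Of the 5 Sec1/Munc18 genes listed apart from the Vps33 pair and Vps45, Scfd2 was called and had the largest difference of the 96 companions. It had 17.2, 14.2 and 10.1 FPKM in the Fyco1-/- libraries, against 1.70, 1.69 and 2.03 FPKM in the WT libraries. Its mean was 7.67 times as high in Fyco1-/- (log2 2.61, SE 0.17, limma adjusted p = 4.97e-05), although the Fyco1-/- values themselves spread widely. Scfd1, the Sec1/Munc18 protein of endoplasmic reticulum to Golgi transport, averaged 15.2 FPKM in Fyco1-/- and 12.7 FPKM in WT. It was just short of a call (log2 0.26, limma adjusted p = 0.0521). Scfd1 was called with a filter of 1 FPKM in 3 libraries, quantile normalization, median-of-ratios scaling, scaling without crystallins, and without Fyco1-/- C. In the authors' deposited table its adjusted p was 0.0232. In the list of other multisubunit tethers, 1 of 22 was called: Cog6, a subunit of the Golgi tether COG, at 27.4 FPKM in Fyco1-/- and 23.3 FPKM in WT (limma adjusted p = 0.0188). That call was lost without Fyco1-/- A, Fyco1-/- C, WT A, WT B or WT C (adjusted p = 0.0516, 0.0663, 0.0523, 0.0604 and 0.0501). In the authors' deposited table Cog6 had an adjusted p of 0.000614. Cog2 was called there too (adjusted p = 0.00287), but not here (limma adjusted p = 0.0664).

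Of 10 other endosomal and lysosomal SNAREs only Vamp2 was called, at 24.2 FPKM in Fyco1-/- and 20.9 FPKM in WT (log2 0.21, limma adjusted p = 0.0332). Of 20 SNAREs of endoplasmic reticulum, Golgi and plasma membrane only Stx3, a Qa-SNARE of the plasma membrane, was called, at 7.99 FPKM in Fyco1-/- and 10.2 FPKM in WT (log2 -0.33, limma adjusted p = 0.0425). Both calls were lost on leaving out any 1 of the 6 libraries, with adjusted p between 0.0549 and 0.115 for Vamp2 and between 0.0518 and 0.109 for Stx3. They were also lost with no filter on low values (adjusted p = 0.0733 for Vamp2 and 0.112 for Stx3). That of Stx3 was lost with quantile normalization (0.0980) and median-of-ratios scaling (0.0984) too. In the authors' deposited table the adjusted p was 0.0146 for Vamp2 and 0.0628 for Stx3. Stx11, of the same list as Stx3, was called there (adjusted p = 0.0385) but not here (limma adjusted p = 0.0671). Stx7, the partner of Ykt6, averaged 9.18 FPKM in Fyco1-/- and 9.39 FPKM in WT (limma adjusted p = 0.831). None of the 4 genes for SNARE disassembly was called (median log2 -0.01). None of the 7 tested BORC subunits, which bring Arl8 to lysosomes, was called either. All 7 had positive values (log2 0.03 to 0.24, median 0.09), as did 4809 of the 12001 genes tested. The genotypes overlapped in each of the 7.

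**Figure D4:**
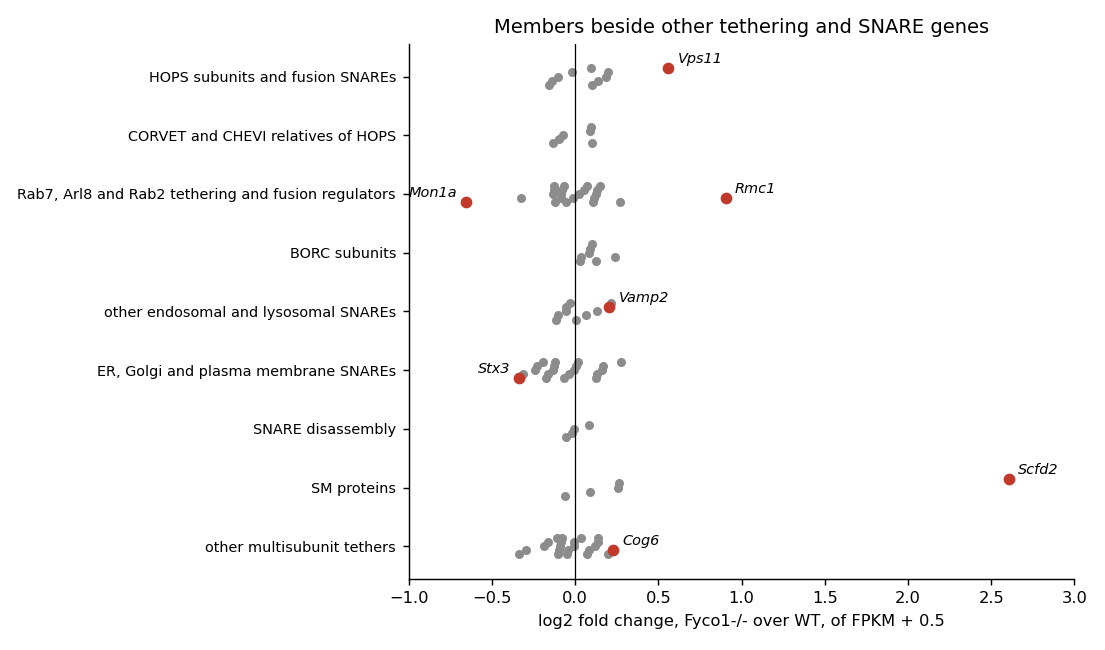
Log2 fold changes, Fyco1-/- over WT, of the 10 members (top row) and of the 96 tested companion genes by list. Each point is a gene, and red points are called at an adjusted p under 0.05. Vps11 at 0.56 stands alone in the top row, and Rmc1, Mon1a and Scfd2 lie farther from 0.

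The Vps11 call was made under each of the 15 other settings tried, with log2 fold changes of 0.52 to 0.63 and adjusted p of 0.000828 to 0.0120. Over the same settings Vps16 had values of 0.13 to 0.24 and was never called. Vps33a had values of 0.18 to 0.24 and was called under the 2 settings named above.

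**Figure D5:**
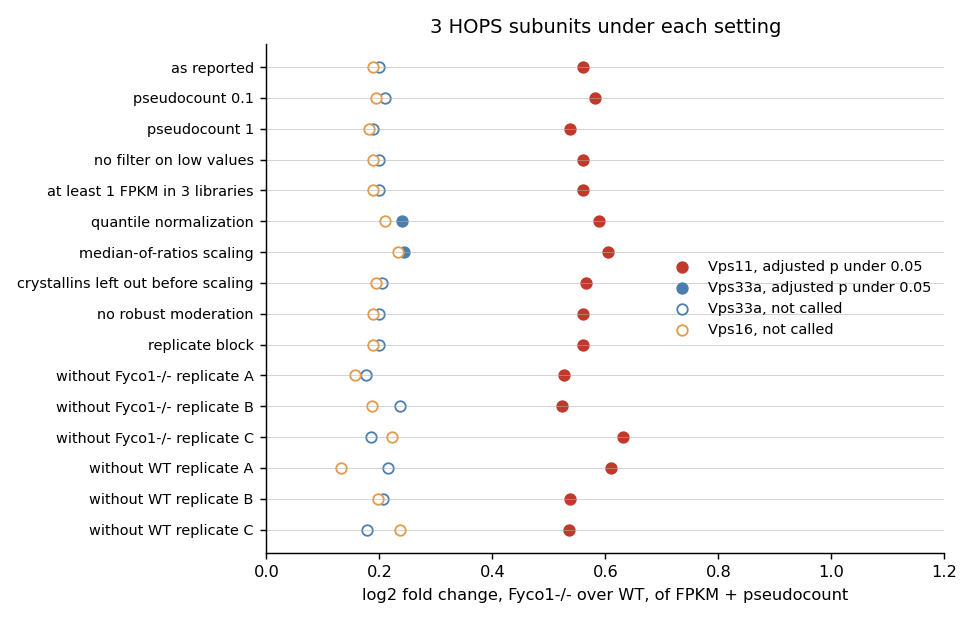
Log2 fold change, Fyco1-/- over WT, of Vps11 (red), Vps33a (blue) and Vps16 (orange) as reported and under 15 other settings, 1 per row. Filled points are called at an adjusted p under 0.05 and open points are not. Vps11 stays between 0.52 and 0.63 and is filled in every row.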

How the data were processed

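RNA of postnatal day 0 mouse lenses was sequenced in 6 libraries. Per the series design text, the authors used STAR 2.5 for alignment to GRCm38/mm10 and HTSeq 0.6.1 for counting, and deposited FPKM values; annotation, strand setting and scaling total are not given in the sources used here. The authors also deposited log2 fold changes and p-values from DESeq2, which are used only where named. Counts are not analysed here, so no intervals based on counts are given. Depth was estimated from steps between small values, using exon lengths of GENCODE M21; of the values worth 1 to 20 reads, 31.3% to 35.7% were whole within a tolerance of 0.05 read, where chance gives 10%.

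Genotypes were compared by a two-sided limma fit (version 3.58.1, R 4.3.3) to log2(FPKM + 0.5) with a variance trend and robust moderation; fold values are ratios of mean FPKM. The steps were tested on simulated data. The smallest p that exact permutation of 6 libraries, 3 per genotype, can give is 0.1. Libraries with the same letter did not deviate together (correlations of deviations -0.03, 0.03 and 0.03). The letters are not stated to mark a litter or day, which these correlations cannot decide, and the main fit did not pair them. The members and lists were chosen with earlier results of these data known. Named genes are the members, Fyco1, up to 4 called genes per companion list, and the tested neighbours and closest correlates of called members. Other companions (Vps8, Tgfbrap1, Vps45, Mon1b, Ccz1, Rab7, Scfd1 and Stx7) were added for their roles after values were seen. So were the marker genes and the genes overlapping a named gene. Plekhm1, Irgm1, Cog2 and Stx11 were added because the authors' deposited adjusted p called them. Some genes that this rule or the marker lists name are not reported here. A blastn search (2.17.0) found no transcript of another gene matching a member over 100 bases or more with 95% identity. Of the companions, 10 were matched through older symbols.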

Additional observations from a re-analysis of the deposited data

How the results depend on the processing

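Each alternative changed 1 choice: a pseudocount of 0.1 or of 1, testing without a filter, a filter of 1 FPKM in 3 libraries, quantile normalization, median-of-ratios scaling, scaling without crystallins, moderation that was not robust, a replicate block, or leaving out 1 library. Of the 165 values of the members and Fyco1 under these settings, 160 kept direction and side of the threshold. Members called numbered 1, or 2 (Vps11 and Vps33a) with quantile normalization or median-of-ratios scaling. The Vps18 log2 fold change turned to 0.059 with quantile normalization, 0.020 with median-of-ratios scaling and 0.023 without WT B, and ranged from -0.061 to 0.023 with 1 library left out. All genes called numbered 1012, but 568 with no filter on low values and 611 to 870 with 1 library left out (670 without Fyco1-/- B, 641 without Fyco1-/- C, 614 without WT A and 611 without WT B). Companion genes called numbered 6, and 2 to 5 with 1 library left out, the lowest being 2 without WT A or WT B. The cause of these shifts was not tested. With the replicate block 929 genes were called, Vps11 kept its call (log2 0.56), and Vamp2 lost its call (adjusted p = 0.0527). The 95% intervals of Vps41 and Ykt6 include 0 and that of Vps16 begins at 0.03, and the estimated 60 to 91 reads per library behind Vamp8 go with the widest interval among the members.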
